A study of Homo sapiens with 6 samples.

Results

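BANF1 and 9 other genes of nuclear envelope assembly were followed in RT-112 cells, an established human line from bladder cancer, after silencing of PPP2R2A. The product of PPP2R2A is B55 alpha, a regulatory subunit that steers protein phosphatase 2A (PP2A) to its substrates. The members were BANF1, VRK1, ANKLE2, EMD, LEMD3, TMPO, LBR, LMNA, LMNB1 and LMNB2. Every probe set whose only gene symbol in the platform's probe table was a member was taken, which gave 21 of 54675 probe sets and 10 of 19775 genes. BANF1 was selected on its change against scramble with both siRNAs, so its values against scramble are a description without a test. The other 9 genes were named for their place in the same process.

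RNA was measured on 6 arrays, 2 (A and B) for each of 3 groups. Cells received siPPP2R2A_1 (siRNA 1), siPPP2R2A_2 (siRNA 2) or a scramble siRNA as control. All 3 groups had the same 50 nM dose, given in Lipofectamine RNAiMAX at 50% confluence and again after 24 h, with harvest a further 24 h later. The submitters describe the arrays as technical duplicates, so each p-value below measures only the spread between such samples, and their number limits the precision. In bulk RNA, fewer cells of a type and less RNA per cell cannot be told apart.

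Barrier-to-autointegration factor (BAF), the product of BANF1, is a small protein that cross-bridges DNA and binds the LEM domain of inner nuclear membrane proteins. In human cells the kinase VRK1 phosphorylates BAF as mitosis begins, which loosens it from DNA and LEM proteins. At mitotic exit ANKLE2, a LEM protein that binds PP2A, is needed for the removal of those phosphates, and BAF then gathers membranes around the chromosomes. Emerin (EMD), MAN1 (LEMD3) and the LAP2 proteins (TMPO) carry the LEM domain, the lamin B receptor (LBR) ties membrane to chromatin and lamins, and A-type (LMNA) and B-type (LMNB1, LMNB2) lamins form the lamina. The steps with phosphate act on protein, whereas the arrays read RNA.

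The stretch of DNA just before BANF1 is shown because BANF1 is the gene the results turn on. It comes from RefSeq on GRCh38.p14, chr11:66002253-66002502 on the plus strand, and ends at the base before the gene's start. Capitals mark the motif CCGGAAG, a core recognised by ETS family factors.
BANF1 promoter: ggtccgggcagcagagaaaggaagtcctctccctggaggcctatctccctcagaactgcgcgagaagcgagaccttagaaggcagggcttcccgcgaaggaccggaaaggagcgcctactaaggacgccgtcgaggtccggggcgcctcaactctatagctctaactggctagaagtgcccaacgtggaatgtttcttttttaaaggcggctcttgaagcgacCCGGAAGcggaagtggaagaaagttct
The motif lies at bases -27 to -21 before the start, and 57.2% of the 250 bases are G or C. The neighbouring gene EIF1AD runs the other way from 345 bases off, and the 250 bases before its start share 155 bases with the stretch shown. A search of both strands for CCGGAAG, the CCAAT box, GGGCGG (GC box), TATAAA (a core promoter element) and TTTGAA or TTCGAA (CHR element) found only CCGGAAG in the BANF1 stretch. Of the 35116 promoters that RefSeq gave, 8.52% held CCGGAAG, 32% CCAAT, 42.6% GGGCGG, 10.7% TATAAA and 14.3% the CHR letters. A promoter was matched for 9 of the 10 members, in 13 windows, and CCGGAAG was found in 3 of these (BANF1, LEMD3 and LMNB2), CCAAT in 6, GGGCGG in 10, TATAAA in 0 and the CHR letters in 1 (LMNB2). These matches describe letters, and binding at them was not tested.

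The targeted gene was low in the knockdown arrays. PPP2R2A had signals of 336 and 397 on the siRNA 1 arrays, 509.96 and 533 on the siRNA 2 arrays, and 1381 and 1589 on the scramble arrays. Groups were compared by limma on log2(signal + 1) with 1 probe set per gene, the one with the highest mean log2 value, and Benjamini-Hochberg adjustment over the 12735 genes whose probe set was above the array median on at least 2 arrays. Calls needed an adjusted p under 0.05 together with a change of 1.5-fold or more. By that rule PPP2R2A fell, with log2 changes of -2.02 ± 0.13 (SE) for siRNA 1 and -1.51 ± 0.13 for siRNA 2 (adjusted p = 0.0403 and 0.0461). Its call was met in 6 of 15 other settings with siRNA 1 and in 4 with siRNA 2, and in 0 of the 6 that left out 1 array, while its log2 change stayed between -2.14 and -1.42 with siRNA 1 and between -1.61 and -1.09 with siRNA 2. With any 1 array left out, 0 genes of the whole table were called with either siRNA. Of 9 urothelial and epithelial markers with a probe set, 9 were above the array median on all arrays, against 0 of 3 leukocyte markers (PTPRC, CD3E and CD14), 2 of 5 fibroblast markers (COL1A1 and LUM) and 2 of 3 endothelial markers (PECAM1 and CDH5). Array medians lay between 69.3 and 76.2. The ratio of 3' to 5' probe sets for ACTB, which reflects RNA quality, averaged 7.17 in siRNA 1, 9.92 in siRNA 2 and 5.68 in scramble arrays, and that of GAPDH 1.01 in siRNA 1, 0.972 in siRNA 2 and 1.00 in scramble arrays.

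BANF1 stood at more than 2 times its scramble level with both siRNAs. Its only probe set, 210125_s_at, had signals of 3189.5 and 3428 on the siRNA 1 arrays, 3412 and 3238 on the siRNA 2 arrays, and 1417 and 1466 on the scramble arrays. Every knockdown array was above both scramble arrays. The means were 3309 ± 168 with siRNA 1, 3325 ± 123 with siRNA 2 and 1441 ± 34.4 with scramble (SD, n = 2 each), which puts the knockdown means at 229.5% and 231% of scramble. The log2 changes were 1.20 ± 0.09 (SE) with either siRNA. Between the siRNAs the log2 difference, siRNA 1 minus siRNA 2, was -0.01 with a 95% interval of -0.23 to 0.22. By size of rise BANF1 ranked 125 with siRNA 1 and 143 with siRNA 2 among the tested genes. Being called with both siRNAs in the same direction was the property it was selected on, and 20 genes (0.157%) had it. This property rests on the settings: the call rule was met with both siRNAs in 4 of 14 other settings and in 0 of the 6 that left out 1 array, while the log2 change stayed at 1.15 to 1.25 for siRNA 1 and 1.17 to 1.24 for siRNA 2. In those 6, without a filter, with averaging of probe sets and with the replicate block, 0 genes of the whole table were called. With median centring 11 genes were called with siRNA 1 and 1 with siRNA 2, and BANF1 was not among them. The probe set is of the type marked s, whose probes can also match related transcripts, and the part of such transcripts in its signal was not tested.

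**Figure D1:**
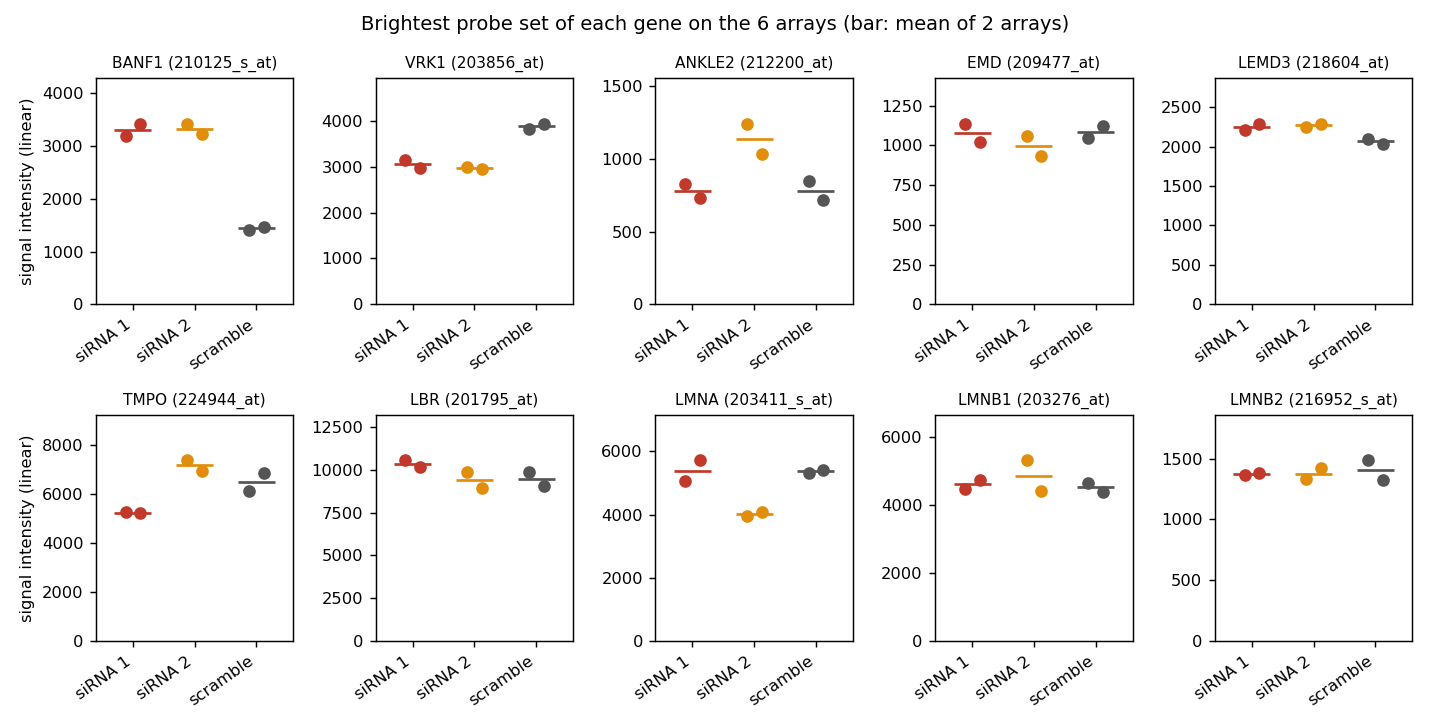
Linear signal intensity (y axis, from 0) of each gene's probe set with the highest mean log2 value on the 6 arrays. Each point is 1 array, and bars are means of the 2 arrays of siRNA 1 (red), siRNA 2 (orange) and scramble (grey). BANF1 stands at 3189.5 to 3428 on the 4 knockdown arrays and at 1417 and 1466 on the scramble arrays, and VRK1 is lower on the 4 knockdown arrays than on either scramble array.

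None of the other 9 members was called by limma in any of the 4 contrasts. Over all tested genes 0.393% were called with siRNA 1, 0.597% with siRNA 2, 0.510% for the mean of both siRNAs and 0.212% for siRNA 1 against siRNA 2, so fewer than 1 call among 9 genes is what the background share gives. At an unadjusted p under 0.05 stood 2 members with siRNA 1 (VRK1 and TMPO), 3 with siRNA 2 (VRK1, ANKLE2 and LMNA), 1 for the mean of both (VRK1) and 3 between the siRNAs (ANKLE2, TMPO and LMNA). Over all tested genes 16.2% had such a p with siRNA 1, 20.8% with siRNA 2, 18.5% for the mean of both and 18.7% between the siRNAs. The 2 of 9 with siRNA 1 lie near the background share. The 3 of 9 with siRNA 2 and between the siRNAs are above it, and the 1 of 9 for the mean is below it. No difference from it was tested. In each contrast 4 of the 9 were above 0 and 5 below. Their median log2 change was -0.01 with siRNA 1 and -0.01 with siRNA 2, beside 0.01 and 0.02 over all tested genes. All 4 knockdown arrays lay on one side of both scramble arrays for 2 of the 9, VRK1 below and LEMD3 above, a pattern that 25.3% of all tested genes had. For the 2 arrays of a single siRNA, which separate from scramble more easily, this share was not counted. Where a gene is given a pair of log2 changes, percentages or adjusted p-values, they are for siRNA 1 and then siRNA 2, each against scramble.

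VRK1, the BAF kinase, was lower on every knockdown array without passing the call rule. Probe set 203856_at read 3149.6 and 2982 on the siRNA 1 arrays, 2987 and 2951 on the siRNA 2 arrays, and 3823 and 3943 on the scramble arrays. The groups did not overlap, and the knockdown means were 78.9% and 76.5% of scramble. The log2 change was -0.34 ± 0.08 (SE) with siRNA 1 and -0.39 ± 0.08 with siRNA 2 (limma, adjusted p = 0.168 and 0.0968), both smaller than 1.5-fold. For the mean of both siRNAs it was -0.36 ± 0.07 (limma, adjusted p = 0.0988). The siRNAs differed by 0.05 on the log2 scale, with a 95% interval of -0.16 to 0.25. When the prior variance was given an intensity trend the limma adjusted p became 0.0275 with siRNA 1 and 0.0100 with siRNA 2. These were its lowest values over the settings, with the same change below 1.5-fold. In that setting 299 genes met the full call rule, with its 1.5-fold part, with siRNA 1 and 472 with siRNA 2. In the reported fit 50 and 76 did. Other members also had an adjusted p under 0.05 against scramble there. They were TMPO with siRNA 1 (0.0496), and ANKLE2 (0.0300) and LMNA (0.0086) with siRNA 2. The share of all tested genes with such an adjusted p there, whatever the size of change, was not counted. These members therefore have no background share beside them.

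ANKLE2, the LEM protein that brings PP2A to BAF, had its highest signals with siRNA 2 on one probe set, without passing the call rule. Probe set 212200_at read 827 and 728 on the siRNA 1 arrays, 1244 and 1036 on the siRNA 2 arrays, and 846 and 719.5 on the scramble arrays. Both siRNA 2 arrays were the highest, and the siRNA 1 arrays lay among the scramble arrays. The log2 change was 0.54 ± 0.15 (SE) with siRNA 2 (limma, adjusted p = 0.149), and the difference siRNA 1 minus siRNA 2 was -0.55 ± 0.15 (adjusted p = 0.172). On 212201_at the signals were 410.4 and 506 with siRNA 1, 463 and 443 with siRNA 2, and 437 and 407 with scramble. There both siRNA 2 arrays were above both scramble arrays, with a log2 change of 0.10 and a 95% interval of -0.26 to 0.47 that includes 0. That interval overlaps the one of 0.13 to 0.95 for 212200_at in the same probe set fit. The difference between the probe sets was not tested. The remaining probe set of ANKLE2, 213962_s_at, did not pass the filter and read between 12.9 and 48.3 on the 6 arrays.

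The LEM proteins of the membrane showed small differences. LEMD3, which binds SMAD proteins as well as BAF, read 2205 and 2291 on the siRNA 1 arrays, 2248 and 2288 on the siRNA 2 arrays, and 2097 and 2036 on the scramble arrays. Its knockdown arrays were all above scramble, at 109% and 109.8% of the scramble mean, with log2 changes of 0.12 ± 0.08 and 0.13 ± 0.08 (SE; limma, adjusted p = 0.506 and 0.397). EMD, mutated in X-linked Emery-Dreifuss muscular dystrophy, read 1136 and 1018 with siRNA 1, 1059 and 930.2 with siRNA 2, and 1046 and 1124 with scramble. The 3 groups overlapped for EMD, and its log2 changes were -0.01 ± 0.11 and -0.13 ± 0.11.

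TMPO, whose splice forms give the membrane-bound LAP2 beta and the nucleoplasmic LAP2 alpha, was on opposite sides of scramble with the 2 siRNAs on its highest probe set. Probe set 224944_at read 5258 and 5198 on the siRNA 1 arrays, 7364 and 6941 on the siRNA 2 arrays, and 6113 and 6828 on the scramble arrays. Both siRNA 1 arrays were the lowest and both siRNA 2 arrays the highest. The log2 change was -0.31 ± 0.09 (SE) with siRNA 1 and 0.15 ± 0.09 with siRNA 2, and the difference between the siRNAs was -0.45 ± 0.09 (limma, adjusted p = 0.240, 0.448 and 0.119). On 203432_at the difference siRNA 1 minus siRNA 2 was -0.15, with a 95% interval of -0.46 to 0.15. On 209753_s_at it was 0.00, with an interval of -0.36 to 0.36, and on the dimmer 209754_s_at 0.33, with an interval of -0.81 to 1.47. The interval included 0 on each of these 3 probe sets, and on 203432_at the estimate had the same sign as on 224944_at. Probe set 237863_at of TMPO did not pass the filter and read at most 33.7.

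LBR, a membrane protein that is also a sterol reductase, read 10559.5 and 10143 on the siRNA 1 arrays, 9851 and 8969 on the siRNA 2 arrays, and 9859 and 9079 on the scramble arrays. Both siRNA 1 arrays were above scramble and the siRNA 2 arrays overlapped it, with log2 changes of 0.13 ± 0.10 and -0.01 ± 0.10 (SE; limma, adjusted p = 0.570 and 0.969). Over the range of settings neither change passed the call rule.

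**Figure D2:**
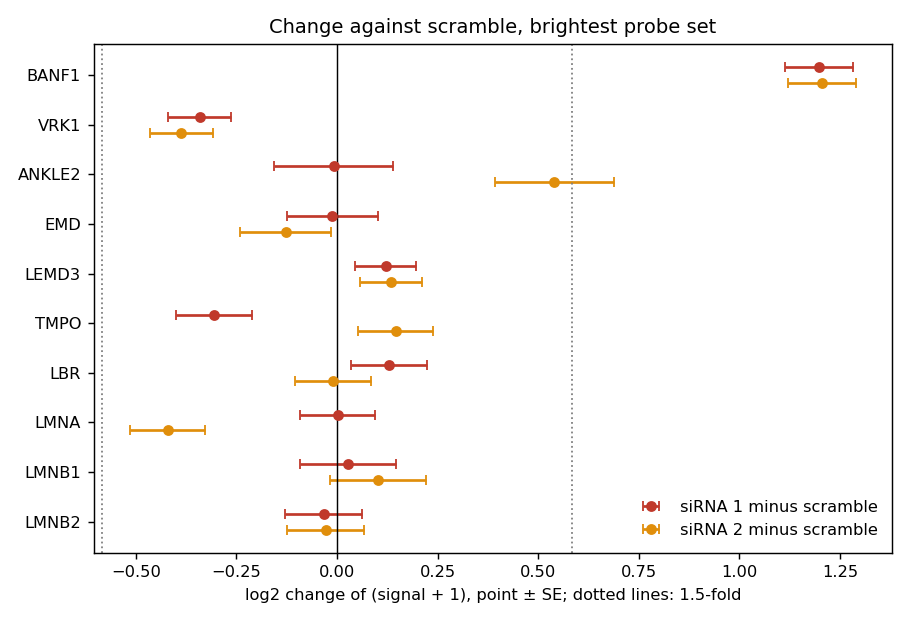
Log2 change of signal + 1 against scramble (x axis) for the 10 members (y axis), siRNA 1 in red and siRNA 2 in orange. Points are limma estimates and bars 1 SE, with dotted lines at a 1.5-fold change. BANF1 lies near 1.20 with both siRNAs, and every other member lies inside the dotted lines, nearest to them ANKLE2 with siRNA 2 at 0.54.

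LMNA, which encodes lamin A and lamin C, had 6 probe sets that did not move together. The highest, 203411_s_at, read 5061 and 5717 on the siRNA 1 arrays, 3958 and 4072 on the siRNA 2 arrays, and 5328 and 5418 on the scramble arrays. Both siRNA 2 arrays were below all others, and the siRNA 1 arrays lay on either side of scramble. The log2 change was 0.00 ± 0.09 (SE) with siRNA 1 and -0.42 ± 0.09 with siRNA 2, and the siRNAs differed by 0.42 ± 0.09 (limma, adjusted p = 0.997, 0.111 and 0.130). Of the other probe sets, 1554600_s_at and 214213_x_at were also low with siRNA 2. Their siRNA 2 means were 75.1% and 69.7% of scramble, against 96.8% and 91.8% with siRNA 1. On 214213_x_at all 4 knockdown arrays were below both scramble arrays. By contrast 212086_x_at and 212089_at were above both scramble arrays on all 4 knockdown arrays, at 114.5% and 119% of scramble with siRNA 1 and 113.5% and 116% with siRNA 2. None of these 5 probe sets was called by limma, but with either siRNA 0 of all 29374 probe sets tested were called. An unadjusted p under 0.05 with siRNA 2 was found for 203411_s_at, 1554600_s_at and 214213_x_at, and for 16.7% of all tested probe sets.

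The transcript that the platform table names for 203411_s_at is that of lamin C and for 212089_at that of lamin A. Their ratio is given as a description, for pairs picked after their values were seen. The log2 difference of 203411_s_at minus 212089_at was 1.41 and 1.78 on the siRNA 1 arrays, 1.10 and 1.34 on the siRNA 2 arrays, and 1.87 and 1.83 on the scramble arrays. All knockdown arrays were below both scramble arrays, and the siRNA 2 arrays were the lowest. The pair 1554600_s_at minus 212086_x_at gave -0.30 and -0.37 with siRNA 1, -0.72 and -0.65 with siRNA 2, and 0.02 and -0.22 with scramble, again lowest with siRNA 2. That order follows from the values of these probe sets given above, and this pair was not assigned to lamin C and lamin A. Such a ratio shows unequal change of 2 probe sets and not which of them changed. The group means of the ACTB 3' to 5' ratio ran the other way, highest with siRNA 2 and lowest with scramble, while its single arrays overlapped between the siRNAs. It was 6.52 and 7.82 on the siRNA 1 arrays, 7.47 and 12.4 on the siRNA 2 arrays, and 5.43 and 5.94 on the scramble arrays. Its part in the LMNA, ANKLE2 and TMPO differences was not tested. The sixth LMNA probe set, 244225_x_at, did not pass the filter and read between 29.2 and 60.3.

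**Figure D3:**
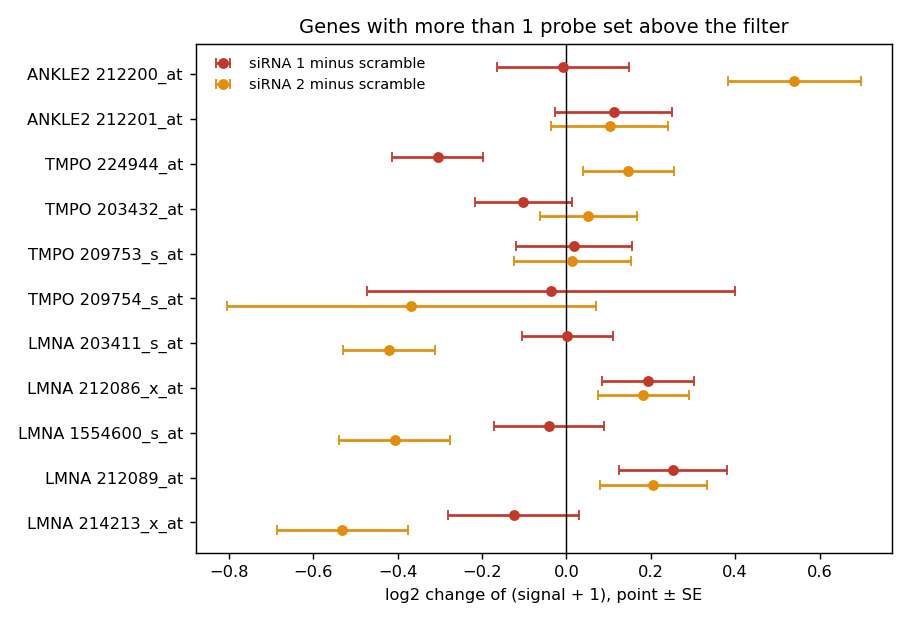
Log2 change of signal + 1 against scramble (x axis) for each tested probe set of ANKLE2, TMPO and LMNA (y axis), siRNA 1 in red and siRNA 2 in orange, points with 1 SE. For LMNA, 203411_s_at, 1554600_s_at and 214213_x_at lie at -0.41 to -0.53 with siRNA 2, whereas 212086_x_at and 212089_at lie at 0.18 and 0.21.

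The B-type lamins, which stay farnesylated and membrane-bound, had overlapping groups. LMNB1 read 4467 and 4732 on the siRNA 1 arrays, 5309 and 4416 on the siRNA 2 arrays, and 4644 and 4387 on the scramble arrays, and all 3 groups overlapped. Its log2 changes were 0.03 ± 0.12 and 0.10 ± 0.12 (SE). LMNB2 read 1363 and 1378 with siRNA 1, 1332 and 1421 with siRNA 2, and 1486 and 1324 with scramble. The groups overlapped for LMNB2 as well, with log2 changes of -0.03 ± 0.10 for both siRNAs and 95% intervals of -0.28 to 0.22 for siRNA 1 and -0.28 to 0.22 for siRNA 2.

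Of the 21 member probe sets 18 passed the filter, 1 of BANF1 and 17 of the other members. Among the 17, limma called 0 in each contrast, and 2 with siRNA 1, 5 with siRNA 2, 1 for the mean of both and 5 between the siRNAs had an unadjusted p under 0.05. Of all tested probe sets 12.95% had such a p with siRNA 1, 16.7% with siRNA 2, 14.7% for the mean of both and 15.0% between the siRNAs. At the level of probe sets the background was 0% with siRNA 1, 0% with siRNA 2, 0.00340% (1 probe set) for the mean of both and 0% between the siRNAs, so a count of 0 among the members is the same as nearly all of the table.

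The genes whose pattern over the 6 arrays was nearest to BANF1 were sought by the Euclidean distance between log2 values centred on each gene's mean. The 5 nearest of the tested genes were MET at a distance of 0.106, CYP27C1 at 0.137, CCND3 at 0.205, BOD1 at 0.211 and MCFD2 at 0.215. MET, the hepatocyte growth factor receptor, read 7152 and 7295 on the siRNA 1 arrays, 7604 and 6921 on the siRNA 2 arrays, and 2985 and 3023 on the scramble arrays. BOD1, a kinetochore protein that inhibits a B56 form of PP2A, read 4423 and 4299 with siRNA 1, 4193 and 4307 with siRNA 2, and 1953 and 2142 with scramble. Like BANF1, all 4 knockdown arrays of both genes were above both scramble arrays, which is what their choice by distance entails. CYP27C1, CCND3 and MCFD2 had log2 changes of 1.07 to 1.10 with siRNA 1 and 1.20 to 1.23 with siRNA 2. The nearest members were far away in the order: LEMD3 ranked 2588 at a distance of 1.24, ANKLE2 ranked 2648 at 1.25 and LMNB1 ranked 3834 at 1.32.

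The genes beside BANF1 on chromosome 11 were not called with it. The 3 protein-coding genes on each side in the RefSeq table are TSGA10IP, SART1 and EIF1AD before it and CST6, CATSPER1 and GAL3ST3 after it. EIF1AD, which starts 345 bases away in the opposite direction, read 1683 and 1433 on the siRNA 1 arrays, 1788 and 1757 on the siRNA 2 arrays, and 1519 and 1693 on the scramble arrays. These signals are of 239377_at, where the groups overlapped with siRNA 1 and not with siRNA 2. Its log2 changes were -0.05 ± 0.12 and 0.14 ± 0.12 (SE; limma, adjusted p = 0.880 and 0.547). The log2 changes with siRNA 1 and siRNA 2 were 0.01 and 0.30 for SART1, a splicing factor, -0.11 and -0.20 for CST6, a cysteine protease inhibitor, and 0.02 and -0.29 for CATSPER1, a sperm ion channel subunit. EIF1AD and CST6 each have a further probe set above the filter. On 223682_s_at of EIF1AD the log2 changes were -0.31 ± 0.16 and 0.08 ± 0.16, and on 231248_at of CST6 they were -0.55 ± 0.11 and -0.06 ± 0.11 (SE; limma over probe sets, adjusted p = 0.206 for CST6 with siRNA 1). The order on 223682_s_at was the reverse of that on 239377_at. Both siRNA 1 arrays (304 and 311) were below both scramble arrays (402 and 363). The siRNA 2 arrays (459 and 354) overlapped scramble. None of the 4 genes or these probe sets was called, and TSGA10IP and GAL3ST3 did not pass the filter. Over all tested genes 0.393% were called with siRNA 1 and 0.597% with siRNA 2, and over all tested probe sets 0% with either.

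Genes that act with the members were followed in lists by role, with 103 tested genes in all, of which 102 were not PPP2R2A. Among these 102 limma called 0 with siRNA 1 (8 at an unadjusted p under 0.05), 1 higher with siRNA 2 (PPP2R1B, with 10 at an unadjusted p under 0.05), 1 higher for the mean of both (PPP2R1B, with 9 such) and 0 between the siRNAs (5 such). Over all tested genes 0.393% were called with siRNA 1, 0.597% with siRNA 2, 0.510% for the mean of both and 0.212% between the siRNAs. A count of 0 or 1 call among 102 lies near these shares. As shares of 102 the counts at an unadjusted p under 0.05 are below the 16.2% to 20.8% of all tested genes given above. That difference was not tested. The list of kinases and phosphatases of BAF and lamins held the only calls. PPP2R1B, a scaffold subunit of PP2A, read 1623 and 1336 on the siRNA 1 arrays, 2034 and 1960.3 on the siRNA 2 arrays, and 834 and 843 on the scramble arrays. All knockdown arrays were above scramble, and the siRNA 2 arrays were the highest. It rose with siRNA 2 by a log2 of 1.25 ± 0.12 (SE; limma, adjusted p = 0.0461), while the change of 0.81 ± 0.12 with siRNA 1 was not called (adjusted p = 0.0807). The other 20 tested genes of the list were not called with either siRNA. The call of PPP2R1B ended when any 1 array was left out and in 5 further settings. With any 1 array left out, 0 genes of the whole table were called.

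The remaining lists had 0 calls by limma with either siRNA, and CCNB1, CDK1 and PLK1 stood in more than 1 list. Of 10 tested inner nuclear membrane and LEM genes, 0 had an unadjusted p under 0.05 with either siRNA, and the median log2 change was 0.00 with both, beside 0.01 and 0.02 over all genes. LEMD2, a LEM protein that recruits the membrane-sealing ESCRT complex, had log2 changes of 0.47 ± 0.19 and -0.02 ± 0.19 (SE), and TMEM201 had -0.08 ± 0.23 and -0.41 ± 0.23. Of 3 tested LINC complex genes, which join the nucleus to the cytoskeleton, SUN2 had 0.26 ± 0.10 and 0.01 ± 0.10, and SYNE2 had 0.19 ± 0.09 and -0.11 ± 0.09. The LINC median was 0.19 with siRNA 1 and -0.04 with siRNA 2, and limma gave no unadjusted p under 0.05 there with either siRNA.

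Among 5 tested lamin processing genes, which add and trim the farnesyl anchor, 0 had an unadjusted p under 0.05 with either siRNA, and the medians were -0.09 and 0.09. RCE1, the protease that cuts the farnesylated tail, had log2 changes of 0.28 ± 0.15 and 0.16 ± 0.15 (SE), and FNTA, a farnesyltransferase subunit, 0.17 ± 0.18 and 0.25 ± 0.18. Beside the counts that follow, 16.2% of all tested genes had an unadjusted p under 0.05 with siRNA 1 and 20.8% with siRNA 2. Of 13 tested ESCRT genes 1 and 2 had an unadjusted p under 0.05 with siRNA 1 and siRNA 2, and the medians were 0.06 and 0.12. CHMP2B had -0.27 ± 0.12 and -0.43 ± 0.12, and CHMP4C, which acts in the abscission checkpoint, had 0.23 ± 0.10 and 0.39 ± 0.10. The adjusted p with siRNA 2 was 0.155 for CHMP2B and 0.144 for CHMP4C.

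Of 30 tested nuclear pore genes, limma gave an unadjusted p under 0.05 for 2 with siRNA 1 and 3 with siRNA 2, and the medians were 0.01 and 0.06. NUP50 read 3717 and 4018 on the siRNA 1 arrays, 4184 and 4803 on the siRNA 2 arrays, and 2985 and 2963 on the scramble arrays. All its knockdown arrays were above scramble, and its log2 changes were 0.38 ± 0.10 and 0.59 ± 0.10 (SE; limma, adjusted p = 0.212 and 0.0799). NUP214 had log2 changes of -0.47 ± 0.26 and -0.46 ± 0.26. Of 20 tested proliferation genes, 1 and 0 had an unadjusted p under 0.05 with siRNA 1 and siRNA 2, and the medians were 0.00 and -0.05. AURKA, a mitotic kinase, had -0.23 ± 0.08 and -0.20 ± 0.08, and BUB1, a spindle checkpoint kinase, had 0.21 ± 0.11 and 0.20 ± 0.11.

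BAF also keeps the DNA sensor cGAS off chromosomal DNA in human cells, so genes of cytosolic DNA sensing were set beside it. Of 3 tested genes 0 were called by limma and 1 had an unadjusted p under 0.05 with each siRNA. IFI16, a DNA sensor, read 4907 and 4899 on the siRNA 1 arrays, 4538 and 4404 on the siRNA 2 arrays, and 3963 and 3837 on the scramble arrays. Its knockdown arrays were all above scramble, with log2 changes of 0.33 ± 0.08 and 0.20 ± 0.08 (SE; limma, adjusted p = 0.166 and 0.241). CGAS had -0.28 ± 0.16 and -0.05 ± 0.16. BANF2, the paralog of BANF1, did not pass the filter and read between 5.52 and 25.2 on the 6 arrays.

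**Figure D4:**
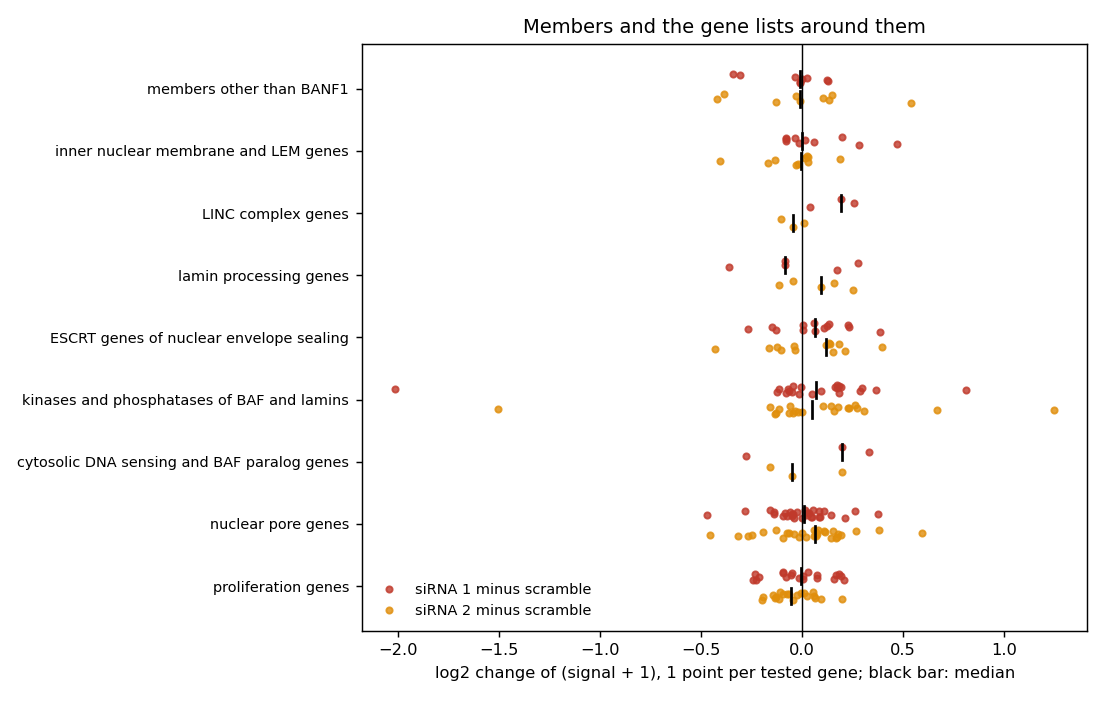
Log2 change of signal + 1 against scramble (x axis) for each tested gene, by list (y axis), with siRNA 1 in red, siRNA 2 in orange and a black bar at each median. Medians outside the LINC and DNA sensing lists lie between -0.09 and 0.12, and the points farthest from 0 are PPP2R2A at -2.02 and -1.51 and PPP2R1B at 0.81 and 1.25.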

How the data were processed

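The authors deposited, for each of 54675 probe sets and 6 arrays, a linear signal intensity. It was made with Affymetrix Expression Console, per the submitters' processing notes. Its version and the algorithm chosen in it are not given in the labels used here. The mean after trimming 2% from each tail was 500.067 to 500.07 on every array, so the authors had scaled the arrays, and no further normalization was applied. No detection calls came with the deposited values. Per the labels' protocols RNA was extracted with TRIzol, purified on RNeasy columns and labelled with the MessageAmp Premier kit. Groups follow the siRNA named in the sample titles, and 1 title of siRNA 1 spells the gene differently.

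From the deposited values log2(signal + 1) was computed. Of all probe sets 41091 carried 1 symbol, 1801 several, 11721 none and 62 were controls. Of those with 1 symbol 41037 matched RefSeq by Entrez identifier. For each gene the probe set of highest mean log2 value was used, and genes above the array median on at least 2 arrays were tested, which kept 12735 and removed 7040. limma 3.58.1 in R 4.3.3 fitted a mean per group over all 6 arrays (3 residual and 1.72 prior degrees of freedom), with Benjamini-Hochberg adjustment over all genes. The probe set fit covered the 29374 non-control probe sets above the same filter. The fit was tested on simulated data. Plots used Python 3.11.15 and matplotlib 3.10.9.

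The members and lists were chosen with earlier results of these data known. Named are all members and their probe sets, PPP2R2A, the 3 protein-coding neighbours on each side of BANF1, the 5 tested genes and 3 members nearest to BANF1, and from each list the genes called with either siRNA or otherwise the 2 with the largest absolute mean change. Other settings were quantile normalization, median centring, a pseudocount of 16, no filter, a filter at the 75th percentile, an intensity trend in the prior variance, averaging of all probe sets per gene, plain probe sets only, the replicate letter as a block, and leaving out each array in turn.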

Additional observations from a re-analysis of the deposited data

How the results depend on the processing

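In the 15 other settings all 112 counts of called members other than BANF1 and of their probe sets were 0. All 536 values of single members other than BANF1 stayed on the same side of the call rule. Without a filter, with averaging of probe sets, with the replicate block or with an array left out, 0 genes of the whole table were called. In those settings no member could meet the call rule, so the counts and values there show no stability. The reported probe set fit called at most 1 of all 29374 probe sets by the call rule, which limits the probe set counts likewise. BANF1 for the mean of both siRNAs met that rule in 5 of 14 settings and in 0 of those that left out an array. BANF1 and LMNB2 have no probe set of the plain type, so they had no value in that setting. Of the 536 values 27 had the other sign, as did 2 of 14 for BANF1 between the siRNAs. LMNA, at -0.42 on the log2 scale with siRNA 2 and -0.21 for the mean of both siRNAs, stood at 0.21 and 0.23 with plain probe sets only, where 212089_at represents it. The other sign changes were of values near 0: ANKLE2 with siRNA 1 at 0.035 with averaging of probe sets, LBR with siRNA 2 at 0.025 with quantile normalization and 0.015 with median centring, and LMNB2 between the siRNAs at 0.0055 with quantile normalization. Leaving out 1 array at a time gave, with siRNA 1, ranges of -0.13 to 0.11 for ANKLE2, -0.091 to 0.068 for EMD, -0.086 to 0.090 for LMNA, -0.015 to 0.068 for LMNB1 and -0.12 to 0.050 for LMNB2. With siRNA 2 the ranges were -0.077 to 0.058 for LBR, -0.032 to 0.23 for LMNB1 and -0.11 to 0.055 for LMNB2. For the mean of both they were -0.16 to 6.2e-05 for TMPO, -0.0025 to 0.13 for LMNB1 and -0.11 to 0.053 for LMNB2. Between the siRNAs they were -0.059 to 0.045 for BANF1, -0.041 to 0.014 for LEMD3, -0.21 to 0.058 for LMNB1 and -0.052 to 0.041 for LMNB2. The count of list genes called other than PPP2R2A, 0 with siRNA 1, was 1 (PPP2R1B) with the filter at the 75th percentile and with the intensity trend. With siRNA 2 the count of 1 became 3 in those same settings (PPP2R1A, PPP2R1B and NUP50, all higher). It became 0, as did the count of 1 for the mean of both siRNAs, with median centring, no filter, averaging of probe sets per gene, plain probe sets and the replicate block, and was 0 to 0 whichever array was left out. With the array letter as a replicate block 0 genes in all were called by limma. The labels do not say whether equal letters mark pairs. Deviations of equally lettered arrays correlated at -0.03, 0.01 and 0.04 over 12735 genes. This shows no large effect shared by a letter, but it cannot tell whether arrays were handled in pairs. Genes called in all numbered 50 with siRNA 1 and 76 with siRNA 2, and ranged over the settings between 0 and 299 and between 0 and 472, with 0 in both whenever an array was left out. Pairs of technical duplicates limit what could be detected. Signals near the array median limit it for other genes, while the probe sets used for the members stood at percentile 81.36 or higher on every array.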
